A study of Mus musculus with 12 samples.

Results

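The collagen genes of mouse inguinal white adipose tissue (iWAT) are described here, namely the genes whose symbol is Col, a number, a and a second number. This rule on symbols found 39 of the 14159 listed genes, and no measured value entered it. They comprised 10 fibrillar collagen genes, 7 basement membrane collagen genes (those of types IV, XV and XVIII) and 22 others. Of the 39 genes, 34 reached a 12-library mean of 10 normalized counts and were tested, whereas Col8a2, Col9a2, Col19a1, Col22a1 and Col26a1 lay below this filter. Col2a1, Col4a1, Col6a4, Col9a1, Col21a1 and Col25a1 were not analysed here. RNA sequencing of whole iWAT covered 4 groups of 3 biological replicates, numbered 0 to 2. Atf4WT mice carried floxed Atf4 alleles (Atf4 fl/fl), and their Atf4AKO littermates carried the same alleles together with Adipoq-Cre, on a C57BL/6 background. Either genotype was sampled at room temperature (RT) and after a cold exposure of 24 h at 5 °C. The age of these mice is not given in the sources used here. Adipoq-Cre deletes in adipocytes, whereas the RNA came from all cells of the tissue.

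Collagens are triple helices of 3 chains. Fibrillar collagens (types I, III and V among them) form the tensile fibrils of the interstitial matrix, type IV collagen forms the network of basement membranes, on which types XV and XVIII sit, and type VI collagen forms beaded filaments between cells and fibrils. In adipose tissue, fibroblasts and adipose progenitors are the main makers of fibrillar collagen, while each adipocyte is surrounded by a basement membrane that contains type IV.

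The listed genes received 25719476 to 29105147 reads in each library. Atf4 was at 4815 ± 791 normalized counts (SD, n = 3) in Atf4WT and 1568 ± 87.9 in Atf4AKO libraries at RT, and at 6970.1 ± 1054 and 1182 ± 395 after cold exposure, without overlap between the genotypes (adjusted p = 0.0762 at RT and 0.000644 after cold exposure, limma). All 10 adipocyte markers were listed, at a summed level between 752523 and 1259975 normalized counts. Some libraries stood apart from the rest of their group or of the study. The 25 B cell and T cell markers had a mean log2 value between 7.16 and 9.68 in cold-exposed Atf4WT libraries, between 3.69 and 7.0 in Atf4WT libraries at RT and between 3.39 and 5.13 in the 6 Atf4AKO libraries. The 6 listed skeletal muscle markers summed to 112938 normalized counts in Atf4WT RT replicate 2, 38299 in Atf4WT cold replicate 0 and 4037 in Atf4AKO cold replicate 1, against 84 to 848 in the other libraries. Because the tissue was sequenced in bulk, fewer cells of a type and less RNA per cell cannot be told apart.

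The promoters below are those of 3 collagen genes that were lower after cold exposure (Col3a1, Col5a1 and Col23a1) and 2 that were higher (Col27a1 and Col10a1). Each line gives the 150 bases before the RefSeq start site on the strand of the gene, in GRCm38. Capitals mark the letters CCAAT or GGGCGG, each also as its reverse complement, and the letters TATAA on the strand shown only.
Col3a1, chr1:45311388-45311537, plus strand: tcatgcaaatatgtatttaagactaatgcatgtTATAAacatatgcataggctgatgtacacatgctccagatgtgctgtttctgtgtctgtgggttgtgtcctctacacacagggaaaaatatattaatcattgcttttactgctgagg
Col5a1, chr2:27886275-27886424, plus strand: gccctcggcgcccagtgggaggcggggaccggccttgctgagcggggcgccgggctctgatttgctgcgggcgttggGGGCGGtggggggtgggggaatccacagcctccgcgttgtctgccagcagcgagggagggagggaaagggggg
Col23a1, chr11:51289770-51289919, plus strand: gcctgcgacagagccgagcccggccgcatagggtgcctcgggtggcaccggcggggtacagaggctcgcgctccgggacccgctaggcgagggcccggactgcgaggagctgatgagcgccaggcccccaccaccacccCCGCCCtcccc
Col27a1, chr4:63215262-63215411, plus strand: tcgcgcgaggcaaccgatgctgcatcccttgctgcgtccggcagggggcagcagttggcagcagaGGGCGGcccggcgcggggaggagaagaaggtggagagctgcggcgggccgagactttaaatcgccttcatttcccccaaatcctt
Col10a1, chr10:34389831-34389980, plus strand: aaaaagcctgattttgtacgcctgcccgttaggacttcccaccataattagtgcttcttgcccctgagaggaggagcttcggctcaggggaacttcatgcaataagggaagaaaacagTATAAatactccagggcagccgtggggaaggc
In this window, Col5a1, Col23a1 and Col27a1 held GGGCGG, while Col3a1 and Col10a1 held TATAA. Col10a1 had its TATAA 32 bases before the start and Col3a1 117 bases before it. RefSeq promoters were at hand for 31 of the 39 genes. Within 250 bases before the start, GGGCGG was present in 19 of these 31 (61.3%) and in 32.7% of all 32851 promoters of the table. CCAAT was present in 9 of 31 (29.0%, against 33.8% of all promoters) and TATAA in 6 of 31 (19.4%, against 16% of all). None of the 31 held TGATGNAA, a form of the element bound by ATF4 with C/EBP proteins, searched on both strands, and 3.45% of all promoters did. Among the members called after cold exposure in either genotype, GGGCGG was present in 8 of the 12 lower genes with a promoter and in 3 of the 4 higher ones. A match of letters is a description and not evidence of binding.

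At RT, collagen genes held between 0.756% and 1.12% of the reads on listed genes, and after cold exposure between 0.256% and 0.519%. The mean share was 0.925% in Atf4WT and 0.931% in Atf4AKO libraries at RT, and 0.395% and 0.392% after cold exposure. Each cold-exposed library had a lower share than each library at RT. Col3a1 alone supplied 29.3% of all collagen reads, and the 11 genes with the most reads supplied 96.1%. Fibrillar genes held 0.611% ± 0.0742 (SD, n = 3) of the reads in Atf4WT libraries at RT and 0.256% ± 0.0902 after cold exposure. Basement membrane genes went from 0.155% ± 0.00689 to 0.0819% ± 0.00433, and the other collagen genes from 0.159% ± 0.00279 to 0.0571% ± 0.0167. In Atf4AKO libraries the fibrillar share was 0.632% ± 0.141 at RT and 0.248% ± 0.0956 after cold exposure. The basement membrane share was 0.143% ± 0.0169 and 0.0872% ± 0.0170, and that of the others 0.155% ± 0.0265 and 0.0576% ± 0.0205.

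**Figure D1:**
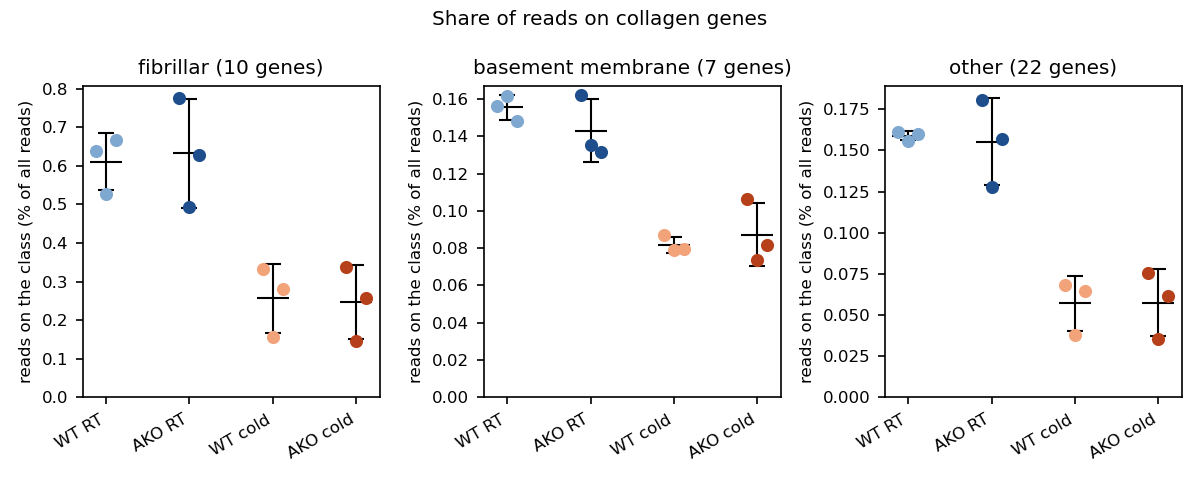
Share of reads on listed genes (percent) that fell on fibrillar, basement membrane and other collagen genes, with 1 point per library and black bars for the mean ± SD of 3 libraries. In each class the 6 cold-exposed libraries lie below the 6 libraries at RT, and the genotypes overlap at either temperature.

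To compare genes with each other, normalized counts were divided by the length in kb of the annotated transcript that matches the accession listed for the gene. In Atf4WT iWAT at RT, Col3a1 ranked first at 13150.0 ± 1374 normalized counts per kb (SD, n = 3), followed by Col1a2 at 5771 ± 908. Neither overlapped with the gene ranked after it. The next genes were Col6a2 (3613 ± 370.4 per kb), Col1a1 (3598 ± 589) and Col4a2 (3394 ± 175), whose libraries overlapped from one to the next. Col6a1 (3062 ± 111) lay below Col4a2 without overlap and overlapped with Col5a3 (2994 ± 407). Of the 38 steps down this order, 8 were between genes whose 3 Atf4WT libraries at RT did not overlap. Col10a1 ranked 38 of 39 at RT, with 0.808 ± 0.649 per kb, and had 7.69 ± 2.47 per kb after cold exposure.

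Cold exposure was compared with RT within each genotype. In Atf4WT iWAT, 12 of the 34 tested collagen genes (35.3%) were lower after cold exposure at an adjusted p-value under 0.05, against 14.9% of all 13404 genes tested, and 4 (11.8%) were higher, against 17.0%. In Atf4AKO iWAT, 11 (32.4%) were lower, against 11.0% of all genes, and 2 (5.88%) were higher, against 14.8%. The median log2 fold change of the 34 genes was −0.81 in Atf4WT and −0.76 in Atf4AKO mice, where the medians over all genes were 0.00 and −0.03. By class, the median in Atf4WT was −1.02 for fibrillar, −0.88 for basement membrane and −0.39 for other collagen genes, and in Atf4AKO it was −0.65, −0.74 and −0.83. Differences between classes were not tested. Most genes called lower were abundant ones. Of the 13 members whose mean reached 1000 normalized counts, 13 had a negative log2 fold change in each genotype and 10 were called lower in each, whereas the 21 members below that level had medians of −0.39 in Atf4WT and −0.01 in Atf4AKO. Without overlap between the 3 cold-exposed and the 3 RT libraries were 20 members lower and 3 higher in Atf4WT, against 22.9% and 23.9% of all genes, and 15 lower and 4 higher in Atf4AKO, against 19.9% and 21.7%. The cold comparisons of the 2 genotypes share no libraries, but they come from the same fit, with a common estimate of the spread of each gene. Their calls are therefore not independent. The 2 comparisons had 9 lower genes in common, which were 75% of those in Atf4WT and 81.8% of those in Atf4AKO. Over all genes 56.3% and 76.1% of the lower calls were shared. Col27a1 and Col10a1 were higher in both.

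**Figure D2:**
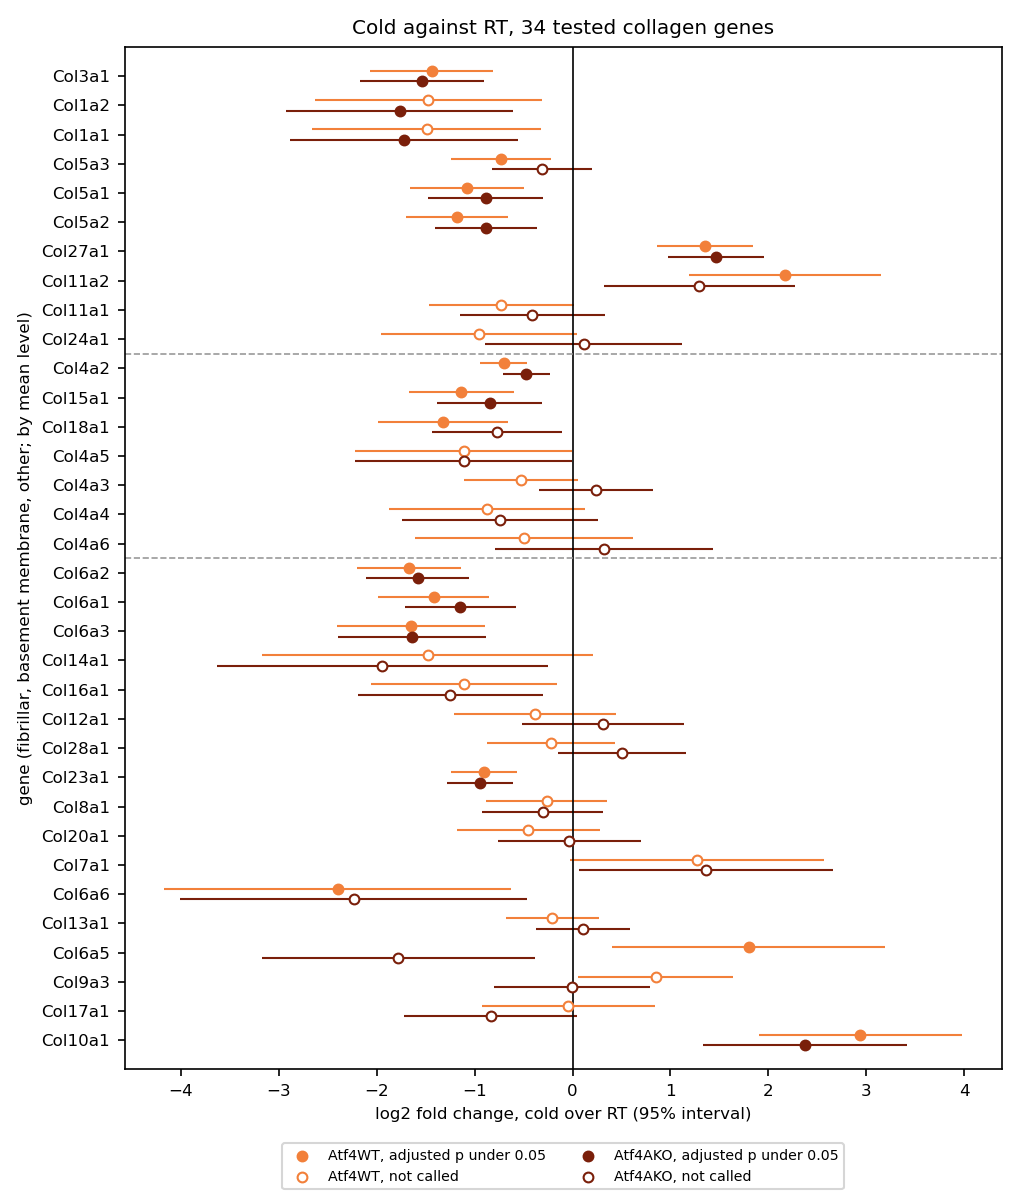
Log2 fold change of cold exposure over RT for the 34 tested collagen genes in Atf4WT (orange) and Atf4AKO (dark red), with 95% intervals from limma. Filled points have an adjusted p-value under 0.05, dashed lines separate fibrillar, basement membrane and other genes, and within each class the genes run from high to low mean level. The abundant genes at the top of each class lie left of 0, and Col27a1, Col11a2 and Col10a1 lie right of 0 in both genotypes.

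Type I and type III collagen, the main fibrillar types, had 3 genes. Col3a1 (NM_009930, 51 exons, chr1:45311538-45349706) encodes the single chain of type III collagen, and its promoter is printed above. Its normalized counts were 79338, 64615 and 75548 in Atf4WT libraries at RT and 35618, 18142 and 30072 after cold exposure. In Atf4AKO libraries they were 97115, 66284 and 74085 at RT and 36951, 18436 and 28656 after cold exposure. Each cold-exposed library was lower than each RT library, and replicate 1 was the lowest of its cold group in both genotypes. Its log2 fold change, given with its standard error (SE), was −1.44 ± 0.29 (SE, adjusted p = 0.00387) in Atf4WT and −1.54 ± 0.29 (SE, adjusted p = 0.00323) in Atf4AKO mice.

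Col1a1 (NM_007742, chr11:94936224-94953042) and Col1a2 (NM_007743, chr6:4504814-4541544) encode the chains of type I collagen, which join in a ratio of 2 to 1. Col1a1 was at 22759, 17352 and 23891 normalized counts in Atf4WT libraries at RT and at 13159, 3437 and 9399 after cold exposure. In Atf4AKO libraries it was at 29246, 19360.3 and 21830.3 at RT and 12197, 3002 and 9425 after cold exposure. The groups did not overlap in either genotype, but the cold-exposed libraries varied widely among themselves, with replicate 1 lowest. The log2 fold change was −1.72 ± 0.53 (SE, adjusted p = 0.0352) in Atf4AKO mice, a fall, and −1.49 ± 0.53 (SE, adjusted p = 0.0522) in Atf4WT mice, just short of the threshold. Col1a2 had 33718, 25257 and 33618 normalized counts in Atf4WT libraries at RT and 18101, 5232 and 14106 after cold exposure. The corresponding Atf4AKO values were 44817, 27994 and 32774 at RT and 16901, 4206 and 14690.2 after cold exposure. Again the groups did not overlap and replicate 1 was lowest after cold exposure, with log2 fold changes of −1.47 ± 0.53 (SE, adjusted p = 0.0533) and −1.77 ± 0.53 (SE, adjusted p = 0.0308). The calls of Col1a1 and Col1a2 in Atf4AKO were lost when cold replicate 1 or any single RT replicate of Atf4AKO was left out. That of Col1a1 was also lost with edgeR and with a score of lymphocyte markers as a covariate. Over all alternatives the adjusted p-values of Col1a1 and Col1a2 reached 0.117 and 0.103. With replicate 1 of both cold groups left out the 2 genes were called lower in both genotypes. The ratio of the 2 genes varied little. Per kb, Col1a1 was between 0.579 and 0.656 times Col1a2 in all 12 libraries.

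Type V collagen, which is found inside the fibrils and regulates their diameter, had 3 genes. Col5a1 (chr2:27886425-28039514) was at 8719, 8039 and 8850.0 normalized counts in Atf4WT libraries at RT and 5762, 2758 and 4153 after cold exposure, and in Atf4AKO at 10061, 7092 and 8521 at RT and 6033, 3229 and 4906 after cold exposure. Col5a2 (chr1:45374321-45503282) was at 7797, 7731 and 8256 at RT and 4464, 2472 and 3867 after cold exposure in Atf4WT, and at 9095, 6753 and 6689 at RT and 5232, 2939 and 4232 after cold exposure in Atf4AKO libraries. Both genes separated the temperatures without overlap, and both fell in both genotypes. Their log2 fold changes in Atf4WT were −1.08 ± 0.27 (SE, adjusted p = 0.0109) and −1.18 ± 0.24 (SE, adjusted p = 0.00390), and in Atf4AKO −0.89 ± 0.27 (SE, adjusted p = 0.0304) and −0.89 ± 0.24 (SE, adjusted p = 0.0189). In Atf4AKO, Col5a1 was called in 21 of 25 analyses (the main one and 24 alternatives) and Col5a2 in 23. The Col5a1 call was lost without RT replicate 0 or 2 or cold replicate 1 or 2 of Atf4AKO. That of Col5a2 was lost without RT replicate 0 or cold replicate 1 of Atf4AKO. In Atf4WT each gene was called in 24 of 25. The ratio of Col5a1 to Col5a2 per kb stayed between 0.820 and 1.02 over the 12 libraries. Col5a2 lies 24614 bp from Col3a1 on chromosome 1, tail to tail. Col5a3 (chr9:20770050-20815067), the gene of the third chain, had 17875, 21004 and 16089 normalized counts in Atf4WT libraries at RT and 14341, 9578 and 9556 after cold exposure, and it fell, at a log2 fold change of −0.73 ± 0.23 (SE, adjusted p = 0.0321). In Atf4AKO libraries it had 19191, 12806 and 16772 at RT and 17768, 10080.1 and 12048 after cold exposure, which overlapped, at a log2 fold change of −0.31 ± 0.23 (SE, adjusted p = 0.345). The call in Atf4WT was lost in 6 of 24 alternatives, among them those without RT replicate 0 or 1 or cold replicate 1 or 2 of Atf4WT, and the log2 fold change lay between −0.93 and −0.60 over the 24.

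Among the 4 fibrillar genes of low level, 2 went the other way. Col27a1 (NM_025685, 61 exons, chr4:63214004-63334991) encodes a fibrillar chain known mainly from cartilage. It had 334, 195 and 328 normalized counts in Atf4WT libraries at RT and 676, 645 and 826 after cold exposure. In Atf4AKO the values were 242, 259.9 and 371 at RT and 766, 901 and 710.2 after cold exposure. Each cold-exposed library was above each library at RT, and the log2 fold changes were 1.35 ± 0.22 (SE, adjusted p = 0.00137) and 1.46 ± 0.22 (SE, adjusted p = 0.00113). Col11a2 (chr17:34039437-34066685), a type XI chain of cartilage fibrils, had 31.2, 21.2 and 49.1 normalized counts at RT and 98.6, 205 and 158 after cold exposure in Atf4WT libraries. It had 32.5, 29.9 and 79.8 at RT and 94.6, 158 and 80.6 after cold exposure in Atf4AKO. The groups did not overlap, although in Atf4AKO the highest library at RT was close to the lowest after cold exposure. Col11a2 rose in Atf4WT, at 2.17 ± 0.44 (SE, adjusted p = 0.00445), and its value in Atf4AKO was 1.30 ± 0.44 (SE, adjusted p = 0.0526). The remaining fibrillar genes, Col11a1 and Col24a1, were under 40 normalized counts in each library and were not called, with log2 fold changes of −0.73 and −0.96 in Atf4WT and −0.41 and 0.11 in Atf4AKO mice.

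**Figure D3:**
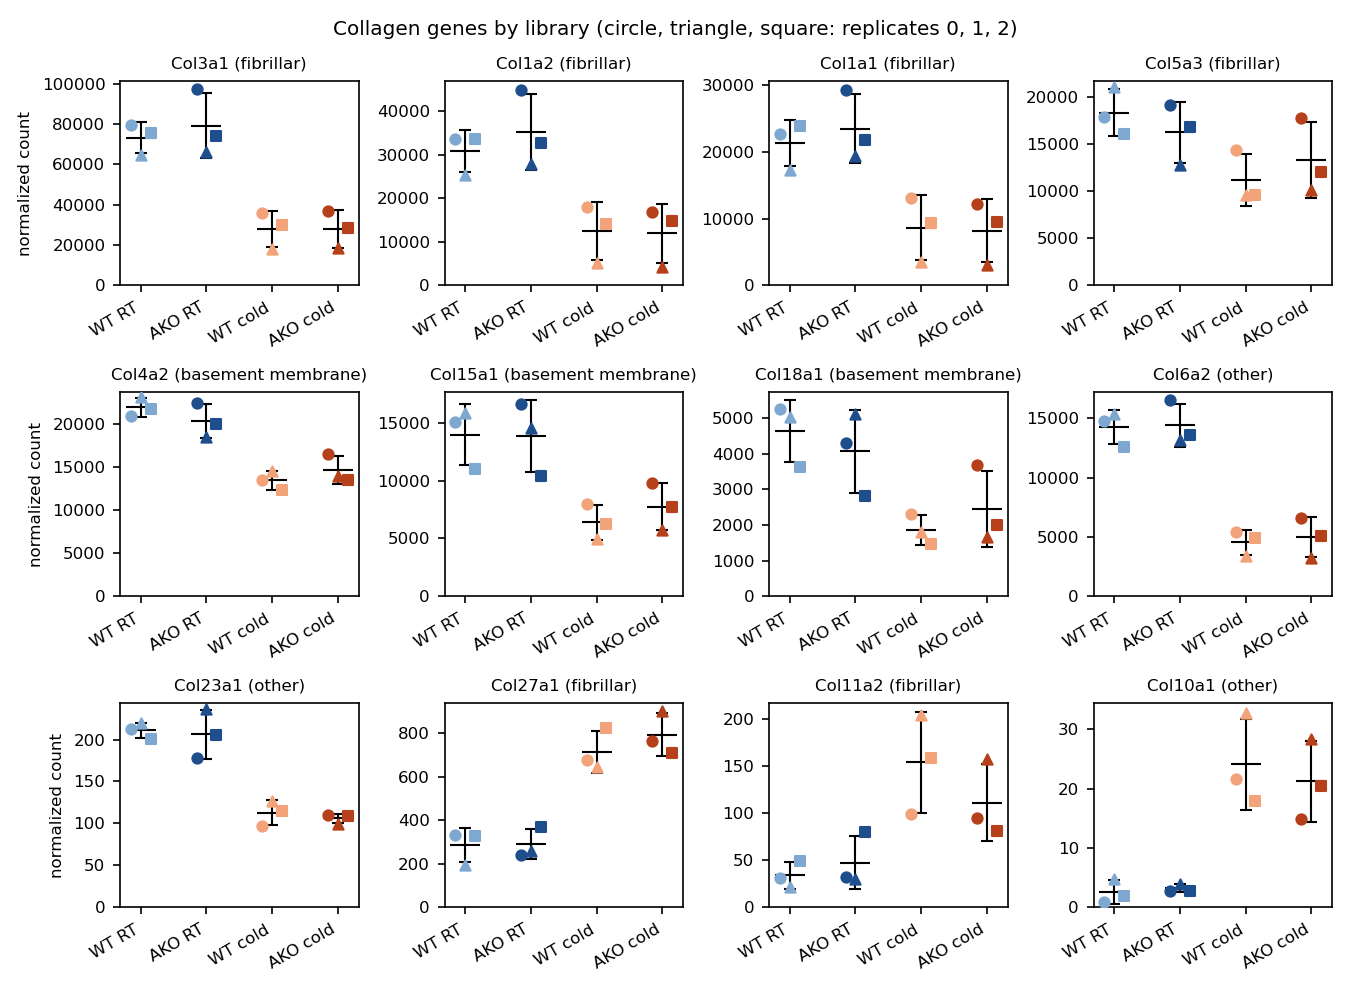
Normalized counts of 12 collagen genes in the 12 libraries, with a marker for each replicate number and black bars for the mean ± SD of 3 libraries. Col3a1, Col1a2, Col1a1, Col4a2, Col15a1, Col6a2 and Col23a1 are lower in each cold-exposed library than in each RT library of the same genotype, and Col27a1, Col11a2 and Col10a1 are higher.

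Of the 7 basement membrane genes, 3 fell in Atf4WT mice and 2 in Atf4AKO mice, and none was called higher. Col4a2 (chr8:11312805-11449287), a chain of the type IV collagen that is found in basement membranes throughout the body, had 20838, 23081 and 21761 normalized counts in Atf4WT libraries at RT and 13507, 14558 and 12338 after cold exposure. In Atf4AKO libraries it had 22357, 18511 and 20010.1 at RT and 16453, 13897 and 13510.4 after cold exposure. The temperatures did not overlap. The log2 fold changes, −0.70 ± 0.11 (SE, adjusted p = 0.00101) and −0.47 ± 0.11 (SE, adjusted p = 0.00925), were smaller than those of type I, III and VI genes. The calls by adjusted p-value held in all 25 analyses, that is, the main one and 24 alternatives. The threshold of the study, which also requires a minimum fold change, is not among these 25. Col4a2 passed that threshold in Atf4WT but not in Atf4AKO mice. The difference in size between these genes was not tested.

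Col15a1 and Col18a1 encode the multiplexins, whose C-terminal fragments restin and endostatin are known as inhibitors of vessel growth. Col15a1 (chr4:47208161-47313167) had 15094, 15846 and 10983 normalized counts in Atf4WT libraries at RT and 8000.1, 4985 and 6205 after cold exposure, and 16582, 14582 and 10428 at RT and 9799, 5741 and 7674 after cold exposure in Atf4AKO. Cold-exposed and RT libraries did not overlap, and the gene fell in both genotypes, at −1.14 ± 0.24 (SE, adjusted p = 0.00552) and −0.85 ± 0.24 (SE, adjusted p = 0.0261) on the log2 scale. Its call in Atf4AKO was lost without RT replicate 0 or 1 or cold replicate 1 or 2 of that genotype, with an adjusted p-value of up to 0.1001. Col18a1 (chr10:77052178-77166548) had 5246, 5018 and 3624 at RT and 2309, 1796 and 1466 after cold exposure in Atf4WT libraries, without overlap, and fell there, at a log2 fold change of −1.32 ± 0.30 (SE, adjusted p = 0.00755). Its Atf4AKO values of 4285, 5104 and 2816 at RT and 3677, 1676 and 2003 after cold exposure overlapped, at a log2 fold change of −0.77 ± 0.30 (SE, adjusted p = 0.0820). Slc19a1, a folate carrier gene on the opposite strand, overlaps Col18a1 in the annotation and had log2 fold changes of 0.64 and 0.66, that is, in the other direction. The libraries came from a strand-specific kit, but whether the counting used the strand is not given in the sources used here, and without it the reads of overlapping genes cannot be told apart.

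The other type IV genes, those of the chains α3 to α6 that are best known from the basement membranes of kidney and skin, were not called in either genotype. Col4a5 had the highest counts of these, at 312, 222 and 484 in Atf4WT libraries at RT and 194, 70.7 and 239 after cold exposure, and at 439.7, 240.0 and 312 at RT and 166, 79.4 and 245 after cold exposure in Atf4AKO. The libraries overlapped, with log2 fold changes of −1.11 ± 0.50 (SE, adjusted p = 0.114) and −1.11 ± 0.50 (SE, adjusted p = 0.127). Col4a3, Col4a4 and Col4a6 lay between −0.88 and 0.32. Col4a3 and Col4a4 start 71 bp apart in head-to-head orientation. Their log2 fold changes were −0.53 and −0.88 in Atf4WT and 0.24 and −0.74 in Atf4AKO mice.

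Type VI collagen, which links cells to the interstitial matrix and is made by fibroblasts and by adipocytes, had 5 tested genes, of which 4 fell in Atf4WT and 3 in Atf4AKO mice. Col6a2 (NM_146007, chr10:76595762-76623630) had 14789, 15398 and 12615 normalized counts in Atf4WT libraries at RT and 5379.7, 3367 and 4891 after cold exposure. In Atf4AKO libraries the counts were 16520.0, 13138 and 13585 at RT and 6634, 3241 and 5114 after cold exposure. Each cold-exposed library was below each RT library of either genotype, and the log2 fold changes were −1.67 ± 0.24 (SE, adjusted p = 0.000700) and −1.58 ± 0.24 (SE, adjusted p = 0.00112), the smallest p-values among the collagen genes that fell in each genotype. Col6a1 (chr10:76708792-76726168) had 12286, 13081 and 12295 at RT and 5818, 3430.4 and 5170.1 after cold exposure in Atf4WT, and 14307, 9657 and 11225 at RT and 7024, 3467 and 5862 after cold exposure in Atf4AKO libraries. Col6a3 (chr1:90765923-90843971) had 13142, 11029.6 and 9851 at RT and 4991, 2181 and 4236 after cold exposure in Atf4WT, and 14404, 11588 and 11517 at RT and 5897, 2309 and 4641 after cold exposure in Atf4AKO. Neither gene overlapped between the temperatures. Col6a1 changed by −1.42 ± 0.26 (SE, adjusted p = 0.00235) and −1.15 ± 0.26 (SE, adjusted p = 0.00809), and Col6a3 by −1.65 ± 0.35 (SE, adjusted p = 0.00488) and −1.64 ± 0.35 (SE, adjusted p = 0.00601). The 3 chains assemble together, and the ratio of Col6a1 to Col6a2 was not constant. Per kb, Col6a1 was at 0.852 ± 0.075 (SD, n = 3) times Col6a2 in Atf4WT and 0.779 ± 0.065 in Atf4AKO libraries at RT, and at 1.01 ± 0.030 and 1.05 ± 0.046 after cold exposure. In both genotypes each cold-exposed library had a higher ratio than each RT library. Col6a3 over Col6a2 overlapped between the temperatures, at 0.349 and 0.357 in Atf4WT and 0.380 and 0.367 in Atf4AKO (means at RT and after cold exposure). Col6a3 over Col6a1 went from 0.412 to 0.351 in Atf4WT, with overlap, and from 0.491 to 0.349 in Atf4AKO, without overlap. Col6a6, a rarer type VI chain, had 87.3, 100.1 and 223 normalized counts at RT and 33.9, 5.28 and 61.2 after cold exposure in Atf4WT libraries, and 189.6, 58.7 and 129 at RT and 22.3, 11.3 and 48.4 after cold exposure in Atf4AKO. It fell in Atf4WT at −2.40 ± 0.81 (SE, adjusted p = 0.0416) and was at −2.23 ± 0.81 (SE, adjusted p = 0.0626) in Atf4AKO, where the groups also did not overlap. It was called in Atf4WT in 14 of 25 analyses.

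Col23a1 (chr11:51289920-51583918), a transmembrane collagen, had 212, 219 and 201 normalized counts in Atf4WT libraries at RT and 96.6, 127 and 115 after cold exposure, and 178, 236 and 205 at RT and 109, 99.8 and 109 after cold exposure in Atf4AKO. The groups were far apart relative to their spread, at −0.91 ± 0.15 (SE, adjusted p = 0.00163) and −0.95 ± 0.15 (SE, adjusted p = 0.00155). Col4a2, Col6a1, Col6a2 and Col23a1 were called lower in both genotypes in all 25 analyses. Col10a1 (chr10:34389981-34397085), best known from hypertrophic cartilage, had the largest log2 fold change above 0 among the tested collagen genes in both genotypes, and few reads. In Atf4WT it had 0.919, 4.81 and 1.85 normalized counts at RT and 21.6, 32.7 and 17.9 after cold exposure, and in Atf4AKO 2.79, 3.98 and 2.78 at RT and 14.9, 28.3 and 20.4 after cold exposure. The lowest cold-exposed library of either genotype was above the highest at RT. These were 8 reads at RT and 71 after cold exposure in Atf4WT, a ratio of 9.54 at equal depth (exact 95% interval 4.59 to 22.9, for counting error only), and 10 and 58 reads in Atf4AKO, a ratio of 6.65 (3.37 to 14.6). On the log2(normalized count + 1) scale the changes were 2.94 ± 0.47 (SE, adjusted p = 0.00123) and 2.38 ± 0.47 (SE, adjusted p = 0.00460). Col10a1 lies within Nt5dc1, a gene of the opposite strand, which had log2 fold changes of 0.38 and 0.63, in the same direction and smaller.

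Col14a1 and Col16a1, which sit on the surface of fibrils or near them, varied more between replicates. Col14a1 had 1250.4, 1626 and 2998 normalized counts in Atf4WT libraries at RT and 1411, 215 and 923 after cold exposure, and 1913, 723 and 2069 at RT and 449.6, 134 and 824 after cold exposure in Atf4AKO. The groups overlapped in both genotypes, and the log2 fold changes of −1.48 ± 0.77 (SE, adjusted p = 0.164) and −1.95 ± 0.77 (SE, adjusted p = 0.0849) did not pass the threshold. Col16a1 did not overlap between the temperatures in either genotype, with log2 fold changes of −1.11 ± 0.43 (SE, adjusted p = 0.0720) and −1.25 ± 0.43 (SE, adjusted p = 0.0539). Col17a1 and Col9a3 were not called with cold exposure, at log2 fold changes of −0.04 and 0.85 in Atf4WT and −0.83 and −0.01 in Atf4AKO. Col7a1, the anchoring fibril collagen of skin, had 1.27 and 1.36 and was not called. Col8a1, Col12a1, Col13a1, Col20a1 and Col28a1 were not called either, with log2 fold changes between −0.45 and 0.50. Of the 5 genes under the filter, none exceeded 20 normalized counts in any library.

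Many genes that make and secrete collagen were also lower after cold exposure. Of 31 tested genes of collagen biosynthesis, 19 were lower after cold exposure in Atf4WT and 15 in Atf4AKO mice, and none was higher, with medians of −0.54 and −0.50. Over all tested genes, 14.9% were lower in Atf4WT and 11.0% in Atf4AKO. Fkbp14, an endoplasmic reticulum prolyl isomerase, went from 719 ± 40.3 to 326 ± 52.1 normalized counts (SD, n = 3) in Atf4WT mice, a log2 fold change of −1.15 ± 0.12 (SE, adjusted p = 0.000127), and was at −0.76 ± 0.12 (SE, adjusted p = 0.00153) in Atf4AKO. Serpinh1, which encodes the collagen chaperone HSP47, fell from 16124 ± 2514 to 8512 ± 754 in Atf4AKO mice, at −0.91 ± 0.16 (SE, adjusted p = 0.00201). Sec24d, a coat protein of the vesicles that export procollagen, was at −1.14 ± 0.15 (SE, adjusted p = 0.000414) in Atf4WT. Plod3, a lysyl hydroxylase, was at −0.65 ± 0.09 (SE, adjusted p = 0.000469) in Atf4WT, and P4hb, the shared subunit of the prolyl 4-hydroxylases, at −0.55 ± 0.10 (SE, adjusted p = 0.00353) in Atf4AKO. By step of the pathway, 3 of 3 prolyl 4-hydroxylase genes, 3 of 5 genes of the prolyl 3-hydroxylase complex and 3 of 5 lysyl hydroxylase and galactosyltransferase genes fell in Atf4WT. So did 7 of 8 chaperone and export genes, 2 of 5 propeptide processing genes and 1 of 5 lysyl oxidase genes (Lox). In Atf4AKO these counts were, in the same order, 2, 4, 1, 6, 2 and 0.

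Of 21 tested partners of the interstitial matrix, 8 fell in Atf4WT and 6 in Atf4AKO mice and none rose, with medians of −0.92 and −0.79. The shares of all tested genes that fell were 14.9% and 11.0%. Prelp, a small leucine-rich proteoglycan that binds collagen, went from 12564 ± 1636 to 2729.9 ± 675 normalized counts in Atf4WT mice, at −2.23 ± 0.19 (SE, adjusted p = 4.45e-05), and was at −1.44 ± 0.19 (SE, adjusted p = 0.000488) in Atf4AKO. Sparc, a collagen-binding glycoprotein, was at −1.08 ± 0.15 (SE, adjusted p = 0.000673) and −0.79 ± 0.15 (SE, adjusted p = 0.00418), and Aspn, another small leucine-rich proteoglycan, at −0.92 ± 0.16 (SE, adjusted p = 0.00211) and −0.82 ± 0.16 (SE, adjusted p = 0.00460). Of 15 tested basement membrane partners, 10 fell in Atf4WT and 7 in Atf4AKO and none rose, with medians of −0.77 and −0.59. Lama4, a laminin chain of vessel and adipocyte basement membranes, was at −0.96 ± 0.16 (SE, adjusted p = 0.00178) and −0.78 ± 0.16 (SE, adjusted p = 0.00627). Pxdn, the peroxidase that cross-links type IV collagen, was at −0.78 ± 0.12 (SE, adjusted p = 0.000871) and −0.50 ± 0.12 (SE, adjusted p = 0.0101). Hspg2 (perlecan) in Atf4WT was at −0.77 ± 0.14 (SE, adjusted p = 0.00200), and Lamc1, a laminin chain, in Atf4AKO at −0.72 ± 0.17 (SE, adjusted p = 0.0104). Of 13 tested collagen receptor genes, 3 fell in each genotype and none rose, against 14.9% and 11.0% of all tested genes that fell. Their medians were −0.45 and −0.49. The integrin genes Itgb1 (−0.47 and −0.30) and Itga1 (−0.69 and −0.41) were called in both, Antxr2 (−0.83) in Atf4WT and Lair1 (−1.29) in Atf4AKO.

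Marker genes of the cells that could hold these transcripts were counted in the same way. Over all tested genes, 14.9% were lower and 17.0% higher in Atf4WT, and 11.0% and 14.8% in Atf4AKO. Of 14 fibroblast and adipose progenitor markers, Clec3b and Dpt were lower in both genotypes, Cd55 was lower in Atf4AKO and Icam1 higher in Atf4WT, with medians of −0.73 and −0.81. Their summed level was 81849 to 90099.9 normalized counts in Atf4WT libraries at RT and 28641 to 63833 after cold exposure, and 69572 to 91433 and 35431 to 51776 in Atf4AKO libraries. Replicate 1 was the lowest cold-exposed library of either genotype for these markers, as it was for 21 of the 34 tested collagen genes in Atf4WT and 24 in Atf4AKO. The 9 listed macrophage markers summed to 14346 and 5417 in those 2 libraries and to between 31178 and 37023 in the other 4 cold-exposed ones. None of the macrophage markers was called, with medians of −0.65 and −0.996. Of 10 mural markers, 3 fell in Atf4WT (Rgs5, Notch3 and Mcam) and 4 in Atf4AKO (the same 3 and Abcc9). Of 10 endothelial markers, Cldn5 fell in both genotypes, Cdh5 and Tie1 in Atf4WT, and Emcn rose in Atf4AKO. Of 10 adipocyte markers, Adipoq and Plin4 fell in Atf4WT and none was called in Atf4AKO, with medians of −0.12 and −0.09. No marker of these lists was at 0 in any library, which was so for each listed gene and is not particular to the markers. The part of these cells in the collagen values was not tested.

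All 11 B cell and 14 T cell markers rose in Atf4WT mice with cold exposure, with median log2 fold changes of 4.45 and 3.36, and none was called in Atf4AKO, where the medians were −0.52 and −0.77. Of 4 listed lymph node stroma markers, Madcam1 and Fut7 rose in Atf4WT. With the mean log2 value of the 25 lymphocyte markers as a covariate, 4 collagen genes were called lower in Atf4WT (Col4a2, Col6a1, Col6a2 and Col23a1) and 1 higher (Col10a1), against 12 and 4 without it. Over all 13379 genes tested in this way, 3.45% were lower and 10.1% higher in Atf4WT. Col3a1 was at −1.59 with the covariate (adjusted p = 0.0557) and Col6a3 at −1.56 (adjusted p = 0.115). In Atf4AKO, 10 members were lower and 4 higher with it, against 11.6% and 15.2% of all genes. In Atf4WT the covariate moves with temperature. No skeletal muscle or epithelial marker was called in either genotype. Without the libraries with the most muscle transcripts, 11 (without Atf4WT RT replicate 2) and 14 (without Atf4WT cold replicate 0) collagen genes were lower in Atf4WT, where 1698 and 1794 of all genes were, against 2000 with each library. In Atf4AKO, 6 were lower without cold replicate 1 (Col3a1, Col4a2, Col6a1, Col6a2, Col6a3 and Col23a1), and the same 6 without RT replicate 0, where 971 and 836 of all genes were lower, against 1479 with each library. With both cold replicates 1 left out, a choice made after the values were seen, 12 and 10 were lower and 4 and 2 higher. Over all 13404 genes 1606 and 983 were then lower and 1599 and 1245 higher.

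Whether loss of Atf4 in adipocytes changed collagen expression was addressed by the comparison of the genotypes at each temperature. At RT, none of the 34 tested collagen genes had an adjusted p-value under 0.05 in limma (0.00746% of all genes, that is, 1 gene, not a collagen) or an unadjusted p-value under 0.05. Past the threshold of the study, a fold change over 1.5 with an unadjusted p-value under 0.05, were 0.463% of all genes. The median log2 difference of the members was −0.02, and over all genes it was 0.01. After cold exposure the median was 0.12, against 0.05 over all genes. No member was called at an adjusted p-value under 0.05, against 0.0298% of all genes, and 4 had an unadjusted p-value under 0.05. All 4 passed the threshold of the study, with Col6a5, Col17a1 and Col9a3 lower in Atf4AKO (8.82% of members, against 6.04% of all genes) and Col11a1 higher (2.94%, against 0.358%). DESeq2, run without the filter on low values, called 1 of the 39 listed members lower after cold exposure, Col6a5. The share over all 14101 genes it tested was 3.99%. No member was called after cold exposure with edgeR, and neither tool called a member at RT.

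The intervals show what differences these libraries leave possible. For Col3a1 after cold exposure the log2 difference between the genotypes was 0.00 with a 95% interval of −0.63 to 0.63, for Col4a2 0.12 (−0.12 to 0.36) and for Col6a2 0.10 (−0.42 to 0.63). Col1a1, whose replicates varied more, was at −0.10 (−1.27 to 1.07). At RT the intervals were −0.53 to 0.73 for Col3a1, −0.35 to 0.13 for Col4a2 and −0.52 to 0.54 for Col6a2. Over the 34 members the median half-width was 0.75 on the log2 scale. After cold exposure, 22 of 34 members lay above 0 and 12 below, where 7955 of all 13404 genes lay above 0 and 5449 below. In the basement membrane class the median was 0.27, in the fibrillar class 0.16 and among the others 0.07. At RT the 7 basement membrane genes all lay below 0, with a median of −0.17 and none called, and the fibrillar and other classes had medians of 0.07 and −0.02. Of all 13404 genes, 6462 lay below 0 at RT and 6942 above. Without overlap between the genotypes after cold exposure were 3 members lower in Atf4AKO (8.82%, against 7.84% of all genes) and 3 higher (8.82%, against 8.68%), and at RT none.

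**Figure D4:**
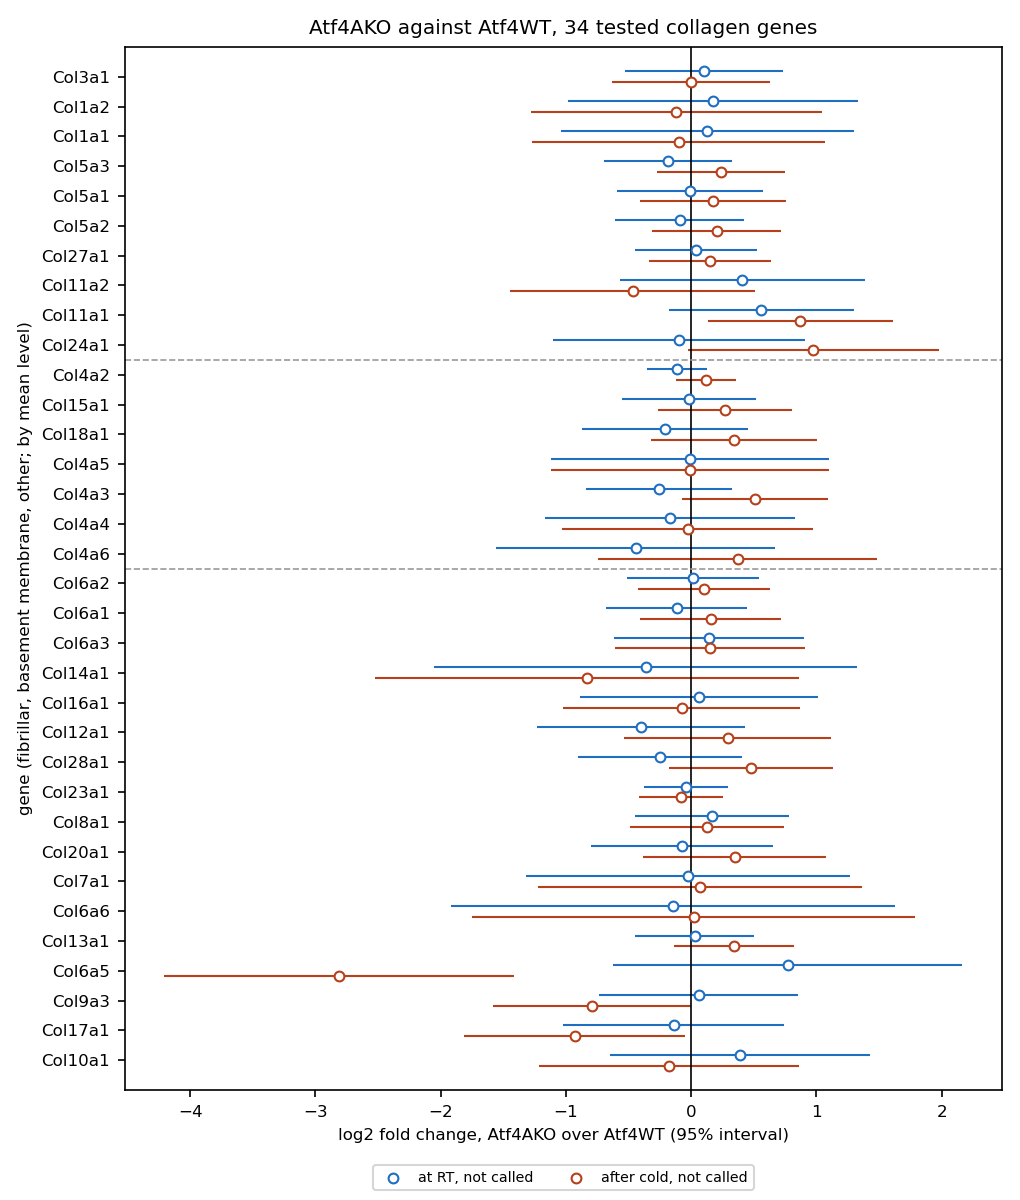
Log2 fold change of Atf4AKO over Atf4WT for the 34 tested collagen genes at RT (blue) and after cold exposure (red), with 95% intervals from limma. No point is filled because none has an adjusted p-value under 0.05, and Col6a5 after cold exposure lies farthest from 0, at −2.81.

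The difference between the cold responses (the interaction) asks whether the genotypes responded unequally. No member was called, against 0.0% of all genes, and the smallest adjusted p-value of a member was 0.474. With edgeR no member was called, and with DESeq2 1 was lower, Col6a5 (against 0.904% of 13826 genes). Col6a5 was also the only member with an unadjusted p-value under 0.05, and the 1 member past the threshold of the study, in the lower direction (2.94%, against 4.17% of all genes). In the higher direction there was none (against 0.463%). The genes called in 1 genotype only are therefore not shown to differ between them. For Col5a3 the difference was 0.42 with an interval of −0.30 to 1.14, for Col18a1 0.55 (−0.39 to 1.49) and for Col11a2 −0.87 (−2.26 to 0.51). The 7 basement membrane genes all had a positive value, that is, a smaller fall or a rise in Atf4AKO, with a median of 0.29, and 0.00 for Col4a5. Of all 13404 genes, 7579 had a positive value and 5825 a negative one. The fibrillar genes had a median of 0.15 and the others of 0.01.

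Col6a5 (NM_001167923, chr9:105856078-105960643) is a type VI chain known from skin, and its gene lies on chromosome 9 next to Col6a6 on the same strand, 27917 bp away. It had 14.7, 8.66 and 26.9 normalized counts in Atf4WT libraries at RT and 61.6, 21.1 and 128 after cold exposure. In Atf4AKO libraries it had 25.1, 29.9 and 25.0 at RT and 7.44, 3.40 and 12.9 after cold exposure. Among cold-exposed libraries the genotypes did not overlap. The Atf4WT libraries after cold exposure were far apart, and replicate 1 among them lay within the range at RT. The log2 fold change with cold exposure was 1.80 ± 0.63 (SE, adjusted p = 0.04999) in Atf4WT, a rise at the edge of the threshold that was lost in 12 of 23 alternatives, and −1.78 ± 0.63 (SE, adjusted p = 0.0599) in Atf4AKO. Between the genotypes after cold exposure it was −2.81 ± 0.63 (SE, adjusted p = 0.0714) at an unadjusted p of 0.000974. Lymphocyte markers were highest in the same group of libraries. They had mean log2 values of 7.16, 9.20 and 9.68 in Atf4WT cold replicates 0, 1 and 2, where Col6a5 was at 61.6, 21.1 and 128. With the lymphocyte score as a covariate the log2 fold change of Col6a5 in Atf4WT was 0.85 (adjusted p = 0.622), and that between the genotypes after cold exposure −1.65 (adjusted p = 0.9995). The part of lymphocytes in the Col6a5 values was not tested.

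**Figure D5:**
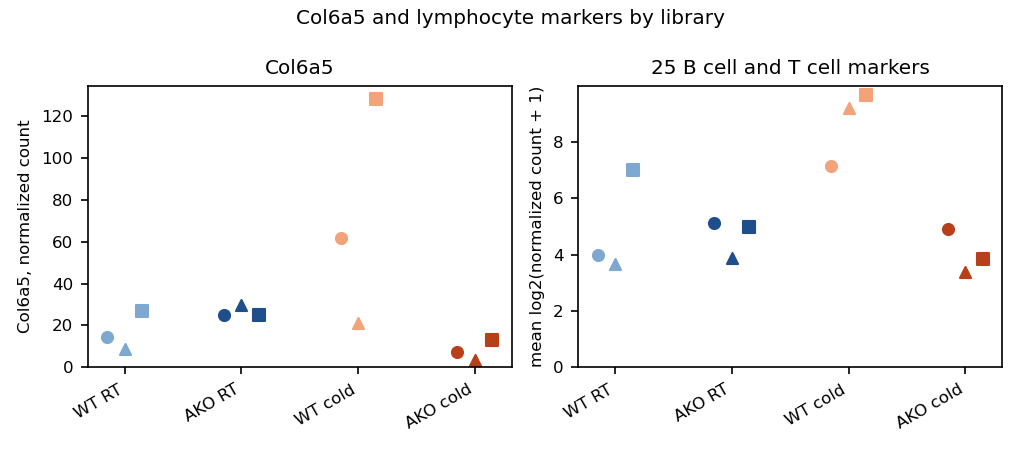
Normalized counts of Col6a5 (left) and mean log2(normalized count + 1) of 25 B cell and T cell markers (right) in each library, with circles, triangles and squares for replicates 0, 1 and 2. The Atf4WT cold group holds the highest library in both panels.

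Col11a1, Col17a1 and Col9a3 were near the lower end of the measured range. Col11a1 had 9.25, 11.6 and 9.42 normalized counts in Atf4WT and 24.4, 15.9 and 18.3 in Atf4AKO libraries after cold exposure, a log2 difference of 0.87 ± 0.34 (SE, adjusted p = 0.310). Col17a1, a transmembrane collagen of epithelial hemidesmosomes, had 10.3, 13.7 and 25.4 in Atf4WT and 6.38, 9.07 and 7.52 in Atf4AKO libraries after cold exposure. Col9a3, which encodes a chain found on cartilage fibrils, had 30.8, 31.7 and 21.7 in Atf4WT and 18.1, 11.3 and 18.3 in Atf4AKO. The groups did not overlap for any of the 3 genes, and the log2 differences of Col17a1 and Col9a3 were −0.93 ± 0.40 (SE, adjusted p = 0.390) and −0.79 ± 0.36 (SE, adjusted p = 0.426). Over 23 alternatives the difference lay between −1.20 and −0.46 for Col17a1, between −0.96 and −0.046 for Col9a3, nearest to 0 with the lymphocyte score as a covariate, and between 0.50 and 1.10 for Col11a1. Of the lists of biosynthesis, matrix partner and receptor genes, no gene was called between the genotypes at either temperature or for the interaction.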

How the data were processed

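Per the methods of the study, the authors passed raw reads through SOAPnuke, aligned them to the mm10 genome (STAR), counted unique alignments per gene (featureCounts) and scaled the counts by size factors in pyDESeq2. The library kit was strand-specific. The counting options given (largest overlap, -B and -C) name no strand setting, and tool versions are not given in the sources used here. The deposited values are this normalized signal, and dividing each library by the value of 1 read gave whole reads for 100% of values (largest deviation 0.000313 reads). Each listed gene had at least 1 read in each library. Replicates are labelled as biological replicates, and depth was 25719476 to 29105147 reads.

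limma 3.58.1 in R 4.3.3 (lmFit, eBayes with a variance trend) was fitted to log2(normalized count + 1) as 4 group means, for the 13404 of 14159 genes whose mean over 12 libraries reached 10 normalized counts. Because the values are normalized, DESeq2, which the authors used, was run as an alternative. A gene was called below an adjusted p-value of 0.05 (Benjamini-Hochberg, over the whole tested table), and the threshold of the study (fold change over 1.5, unadjusted p under 0.05) was counted beside it. Fold changes are on the log2(value + 1) scale, which understates those of low genes. The members and lists (collagen biosynthesis, interstitial and basement membrane partners, receptors, and markers of fibroblasts, adipocytes, endothelium, mural cells, macrophages, B cells, T cells, lymph node stroma, skeletal muscle and epithelium) were chosen with earlier results of these data known. Members named in full were the 4 most abundant of each class and, per comparison and direction, the 3 called members with the smallest p-value (or those past the threshold of the study where none was called), and from each list other than markers the 3 called genes with the smallest p-value per genotype. Other values that the text singles out (the printed promoters, Col4a3 and Col4a4, Col16a1, Col7a1 and the gene overlaps) were added after the values were seen. One further marker list is not reported here.

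Alternatives were pseudocounts of 0.5 and 5, no filter and a filter at 50, only the 2 groups compared, 75th-percentile rescaling, a replicate block, array weights, leaving out each library, a lymphocyte score as covariate, edgeR 4.0.16 and DESeq2 1.42.0 on recovered reads, and both cold replicates 1 left out. The threshold of the study was counted beside them and is not among the analyses over which calls of single genes were followed. The scripts were checked on simulated data. Positions and transcript lengths came from GENCODE vM21 (GRCm38) and promoters from RefSeq (GRCm38.p6). Python 3.11.15, pandas 2.3.3, scipy 1.17.1 and matplotlib 3.10.9 were used for tables and figures.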

Additional observations from a re-analysis of the deposited data

Results flagged for a closer look

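Col6a5 was the only one of the 34 tested collagen genes for which each cold-exposed Atf4WT library lay above the Atf4WT mean at RT and each cold-exposed Atf4AKO library lay below the Atf4AKO mean at RT. Over all 13404 tested genes, 454 (3.39%) moved in opposite directions in this way. The cold response in Atf4AKO minus that in Atf4WT was −3.58 on the log2 scale (SE 0.90, unadjusted p = 0.00205, adjusted p = 0.474 in limma), and the adjusted p-value lay between 0.0207 (DESeq2) and 1.0 over 22 alternatives.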

How the results depend on the processing

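With a lymphocyte score as a covariate, 4 members were lower and 1 higher in Atf4WT and 4 higher in Atf4AKO. A filter at a mean of 50, which tests fewer genes, left 2 higher in Atf4WT and 1 in Atf4AKO, where 2178 and 1999 of all 11842 genes were higher. Array weights gave 4 higher in Atf4AKO, as did the threshold of the study. Over all 13404 genes, array weights gave 2187 higher there and the threshold of the study 1113, against 1988 in the main fit. That threshold gave 4 members between genotypes after cold exposure and 1 for the interaction, and DESeq2 gave 1 and 1. Leaving out 1 library at a time gave 10 to 15 members lower and 3 to 5 higher in Atf4WT, and 6 to 15 lower and 2 to 4 higher in Atf4AKO. Over all genes, 1344 to 2092 were then lower and 1548 to 2388 higher in Atf4WT, and 836 to 1548 lower and 1309 to 2045 higher in Atf4AKO. The medians of the members for the genotypes after cold exposure went from −0.059 to 0.40 (0.12 with all libraries), the lowest without Atf4WT and the highest without Atf4AKO cold replicate 1. The causes of these moves were not tested. Apart from the counts under the replicate block, given next, the other counts stayed within 1.5 times and the other medians within 0.27 (the pooled replicate SD) of their values with all libraries. Of 687 values of named members in the comparisons that named them, 39 lost their call, 3 gained one (Col6a5) and none reversed. Other calls were gained, among them those of Col1a1 and Col1a2 in Atf4WT with DESeq2, array weights and the replicate block. Models of 2 groups give no interaction.

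The replicate numbers are shared by the groups, and no label says that they pair the samples, so the main fit has no block. Over all genes the deviations of same-numbered libraries correlated between −0.19 and 0.39. Between the genotypes these correlations were −0.05, 0.32 and 0.37 at RT (replicates 0, 1 and 2), and −0.15, 0.39 and 0.31 after cold exposure. Over the collagen genes, same-numbered libraries correlated between −0.12 and 0.78, above 0.1 in 15 of 18 pairs. Between the genotypes the collagen values were 0.26, 0.44 and 0.74 at RT and 0.46, 0.78 and 0.68 after cold exposure. Whether the numbers mark a pairing or a batch was not tested. With the replicate block, 17 members were lower in each genotype (12 and 11 without it), with Col14a1, Col16a1 and Col4a5 added in both, Col1a1 and Col1a2 in Atf4WT and Col18a1, Col6a5 and Col6a6 in Atf4AKO. The block gave 4 and 3 higher members, and 1 (Col6a5, adjusted p = 0.0458 in limma) was called between genotypes after cold exposure. Calls over all 13404 genes rose as well. With the block 2308 and 1886 were lower with cold exposure (2000 and 1479 without it) and 2550 and 2243 higher (2273 and 1988 without it). Between genotypes after cold exposure, 187 were lower and 2 higher with the block (4 and 0 without it).

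Over all genes, libraries of 1 group differed by a chi-square of 35.4 to 71.1 per degree of freedom, which is more than counting error gives, whereas Col10a1 rested on 8 and 10 reads at RT.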
